A study of Trichechus manatus latirostris with 11 samples.

Results

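The genes described are the ZFP36, Regnase and Roquin mRNA decay factors, together with ELAVL1, which binds many of the same messages and protects them. They were chosen by name, from a list of 8 symbols. Of these, 5 had a row in the deposited expression table of 15298 transcript records, each with 1 row: ZFP36 (XM_004388159.1), ZFP36L2 (XM_004369516.1), ZC3H12A (XM_004371931.1), RC3H1 (XM_004372831.1) and ELAVL1 (XM_004378398.1). No row carried the symbol of ZFP36L1, ZC3H12C or RC3H2, and these 3 were not analysed here.

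RNA was sequenced from the buffy coat, the white cell layer of centrifuged blood, of 11 adult Florida manatees (Trichechus manatus latirostris). The 4 red tide animals were in treatment for red tide illness at Lowry Park Zoo, some sampled on arrival and the others after a week of care. Of the 7 control animals, 2 were sampled in the Indian River Lagoon (Brevard County), 4 in Crystal River and 1 at Lowry Park Zoo, where it was convalescing after pneumonia. Illness, the zoo stay and the sampling place and date differ between the groups together and cannot be told apart. The same holds for sample storage, as the paper describes archiving at a marine laboratory for the red tide samples alone. The table gives 1 mean of normalized counts (reads divided by the size factor of the library, a measure of its relative depth in counted reads) per group. Its columns do not name the groups, so the means are called here by the number of libraries they average, 4 as in the red tide group and 7 as in the control group. Which group is which rests on these sizes and on the title of the table, which names red tide first and 7 others second. The paper reads the direction between the groups the other way round, taking the deposited fold change, which divides the second mean by the first, as red tide over control. Every direction below is therefore given between the means of the 4 and the 7 libraries, and its reading as red tide against control is unsettled.

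Size factors, found from the steps between low values, were 1.56, 1.03, 0.620 and 0.372 for the 4 libraries and 0.702 to 1.73 for the 7 others. Reads of each library could be recovered only where the mean was low. This gave values of the 4 libraries for ZFP36 and RC3H1, while 37 to 56 combinations of reads gave the 4-library mean of each of the other 3 genes. No member had values for each of the 7 libraries, so no test between groups could be made and no p-value is given. A ratio of group means is read here against the ratios of all other rows. The pan-leukocyte genes ITGB2, LAPTM5 and CORO1A were present in both groups, with log2 ratios (the 4-library mean divided by that of the 7 libraries) of 0.04, 0.77 and -0.67.

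The decay factors set how long inflammatory messages last. ZFP36 (tristetraprolin) and its relative ZFP36L2 bind AU-rich elements near the end of an mRNA through paired zinc fingers and bring in the CCR4-NOT complex, which shortens the poly(A) tail. ZC3H12A is an endonuclease of the Regnase family that cuts stem-loops in messages such as IL6. RC3H1 (Roquin) binds similar stem-loops and also recruits CCR4-NOT. ELAVL1 (HuR) binds AU-rich elements and stabilizes the message. In leukocytes ZFP36 and ZC3H12A are themselves induced by inflammatory stimuli, and so form a brake on the response.

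ZC3H12A and ZFP36 were more than 2-fold higher in the 4-library mean, ZFP36L2 was higher by less than 2-fold, and RC3H1 and ELAVL1 were slightly lower. Thus 2 of the 5 genes passed 2-fold upward and 0 passed it downward. Among all rows, 23.9% were at least 2-fold higher and 10.4% at least 2-fold lower in the 4-library mean. Weak rows account for part of this, since of the 10225 rows whose overall mean reached 10, as it did for all 5 genes, 12.3% were at least 2-fold higher and 9.59% at least 2-fold lower. The median log2 ratio of the 5 genes was 0.65, against 0.14 over all rows and -0.01 over rows with a mean of at least 10. At 1.5-fold, 3 of the 5 genes were higher and 0 lower, against 33.8% and 20.2% of all rows and 22.8% and 21.6% of rows with a mean of at least 10. At 4-fold, 0 were higher and 0 lower, against 12% and 2.27% of all rows and 3.81% and 1.41% of rows with a mean of at least 10. With so few genes these counts describe the members and set them apart from other genes by no test.

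**Figure D1:**
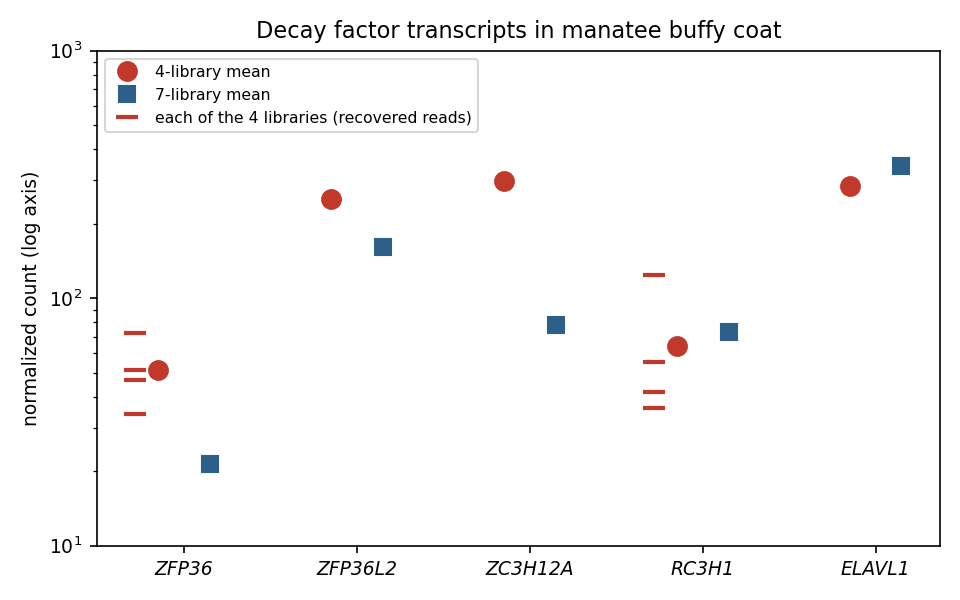
Normalized counts of the 5 genes on a log axis, with circles for the 4-library mean, squares for the 7-library mean and dashes for each of the 4 libraries where reads were recovered. All 4 dashes of ZFP36 lie above its 7-library mean of 21.3, while those of RC3H1 lie on both sides of 73.3.

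ZFP36 averaged 51.1 normalized counts in the 4 libraries, against an average of 21.3 in the 7 others. In order of falling size factor, the 4 libraries held 73, 35, 45 and 19 reads of ZFP36, which correspond to 46.8, 34.1, 72.5 and 51.1 normalized counts (51.1 ± 16.0, SD, n = 4). Each of the 4 libraries therefore lay above the 7-library mean, the highest of them by 3.40-fold. The 95% Poisson limits of the 4 values, which cover counting error only, began at 23.7 or higher, also above 21.3. How far the single values of ZFP36 in the 7 libraries reached is not known.

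The log2 ratio of the ZFP36 means was 1.26, a 2.40-fold difference, and 8.59% of rows with a mean of at least 10 had a higher ratio. When any 1 of the 4 libraries was dropped it stayed between 1.04 and 1.41, the lowest value without the library of size factor 0.620. Among the 4559 rows with recovered reads and a mean of at least 10, 12.5% had all 4 libraries above the 7-library mean, and 27.1% had all 4 below it. The spread of ZFP36 over the 4 libraries (SD of 0.44 on the log2 scale, with 1 added to each count) was below the median SD of 0.60 in 1627 rows with a 4-library mean of 40 to 80.

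ZFP36L2, the paralog of ZFP36 with a role in lymphocyte development and quiescence, had means of 252 over the 4 libraries and 161 over the 7 libraries. This was a 1.57-fold difference and a log2 ratio of 0.65. In the same direction, 20.6% of rows with a mean of at least 10 had a larger ratio, which places ZFP36L2 well within the bulk of genes. ZFP36 and ZFP36L2 are related in sequence, and only uniquely mapped reads had been counted.

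ZC3H12A had the largest difference of the 5 genes. Its means were 298 normalized counts over the 4 libraries and 77.9 over the 7 libraries, a 3.83-fold difference with a log2 ratio of 1.94. Only 4.05% of rows with a mean of at least 10 had a higher ratio. As 56 combinations of reads gave the 4-library mean, it is not known whether the difference was shared by all 4 libraries.

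RC3H1 had means of 64.2 over the 4 libraries and 73.3 over the 7 libraries, with a log2 ratio of -0.19. In order of falling size factor, its 86, 37, 26 and 46 reads correspond to 55.2, 36.0, 41.9 and 124 normalized counts (64.2 ± 40.5, SD, n = 4). In 3 of the 4 libraries RC3H1 was below the 7-library mean, and in the library of size factor 0.372 it was above it. The direction rests on single libraries, since the log2 ratio was -0.72 without the library of size factor 0.372 and 0.0064 without that of size factor 1.03. The difference between the means of RC3H1 was thus smaller than the spread among the 4 libraries.

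ELAVL1, the stabilizing counterpart, had means of 283 over the 4 libraries and 343 over the 7 libraries. The 7-library mean was the higher one by 1.21-fold, with a log2 ratio of -0.28, and 35.6% of rows with a mean of at least 10 had a lower ratio. Centred on the median of all rows, which lay 0.14 above 0, the log2 ratio of ELAVL1 was -0.42. That centring left ZFP36 at 1.12, ZFP36L2 at 0.51, ZC3H12A at 1.80 and RC3H1 at -0.33.

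**Figure D2:**
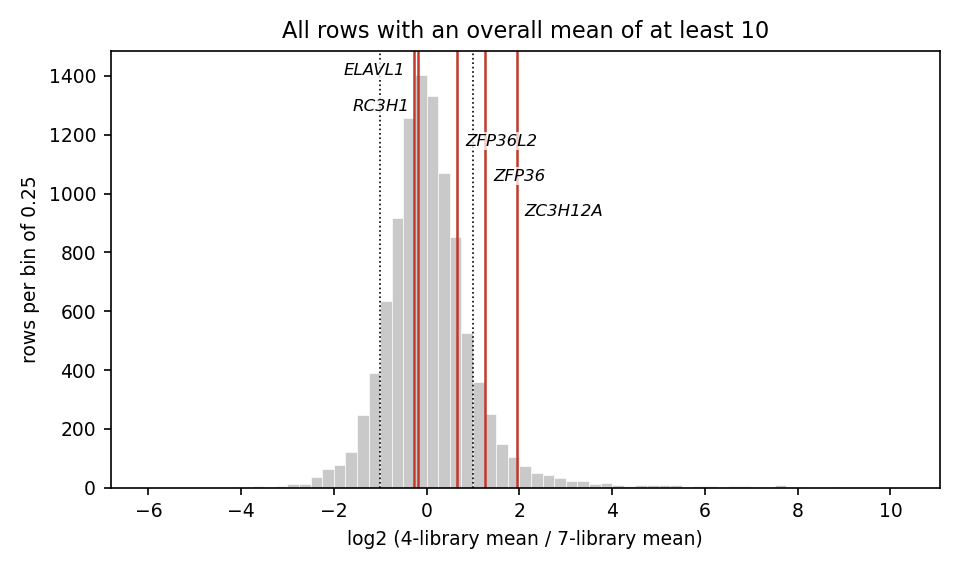
Histogram of the log2 ratio between the group means (4-library divided by 7-library) in the 10225 rows with an overall mean of 10 or more, in bins of 0.25. Red lines mark the 5 genes and dotted lines a 2-fold difference; ZC3H12A at 1.94 and ZFP36 at 1.26 lie in the right tail, and the other 3 lie within 2-fold.

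The machinery around the decay factors was examined with lists of 82 genes that had a row. The lists cover Regnase relatives, regulators, kinases and partners, deadenylases, decapping, the exosome and other RNA-binding proteins, so not only enzymes through which the factors act. Most lay within 2-fold. In these lists 10 of 82 genes (12.2%) were at least 2-fold higher and 5 (6.10%) at least 2-fold lower in the 4-library mean, below the 23.9% and 10.4% of all rows. Restricted to a mean of at least 10, the counts were 7 (9.59%) and 3 (4.11%) of 73 genes, against 12.3% and 9.59% of rows. The median log2 ratio of the 82 genes was 0.03.

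Among other Regnase family members and relatives, 3 of 5 listed genes had a row. KHNYN, which shares the nuclease domain of the family, had means of 187 over the 4 libraries and 176 over the 7 libraries, and NYNRIN had means of 30.5 and 20.2. The gene past 2-fold, named after its values were seen, was ZC3H12B, a little studied Regnase. ZC3H12B had 0, 2, 17 and 13 reads in the 4 libraries in order of falling size factor, and a single read in the 7 libraries together. Its values were high in the libraries of the smallest size factors (27.4 and 35.0 normalized counts) and 0 and 1.95 in the others. The ratio of its means, 124, has 95% counting limits of 22.3 and 4912 from that single read.

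Of the regulators of Regnase and Roquin, 10 had a row, with 0 at least 2-fold higher and 2 (20%) at least 2-fold lower. The shares of all rows were 23.9% and 10.4%. The median log2 ratio of the list was -0.20. MALT1, the protease that cleaves ZC3H12A and Roquin in activated lymphocytes, had means of 157 over the 4 libraries and 148 over the 7 libraries. BCL10, its adaptor, had the highest log2 ratio of the list, 0.34. IKBKB, a kinase that marks ZC3H12A for degradation, had the lowest, with means of 1.61 and 15.6 and a log2 ratio of -3.28. In the 4 libraries IKBKB had 4, 4, 0 and 0 reads, so all 4 values were below the 7-library mean. This was also so in 27.1% of rows with recovered reads and a mean of at least 10. BTRC, a subunit of the ubiquitin ligase that follows IKBKB, was the other gene past 2-fold, with means of 2.75 and 5.71 normalized counts. It was weakly expressed, with 5, 8, 0 and 0 reads in the 4 libraries. A second, weaker row of BTRC went the other way, with means of 0.806 and 0.572. At a mean of at least 10, 1 of 9 genes of the list was at least 2-fold lower, against 9.59% of such rows. The kinases SMG1 and TBK1 had log2 ratios of -0.55 and -0.43.

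Among the kinases, phosphatase and partners of ZFP36, 1 of 12 genes was at least 2-fold higher and 1 at least 2-fold lower. This was 8.33% each way, against 23.9% and 10.4% of all rows. PPP2CA, the catalytic subunit of the phosphatase that removes the phosphates which silence ZFP36, was 2.98-fold higher in the 4-library mean, with means of 8224 and 2760 normalized counts. MAPK14, the p38 kinase of that phosphorylation pathway, was 2.69-fold lower, with means of 282 and 758. MAPKAPK2, the kinase that phosphorylates ZFP36 directly, had a log2 ratio of 0.38, and YWHAG, one of the proteins of the family that binds phosphorylated ZFP36, had a log2 ratio of 0.80. MALT1 and MAPKAPK2 were named after their values had been seen, for their role.

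The deadenylase list, all 18 genes of which had a row, had 2 genes at least 2-fold higher and 2 at least 2-fold lower. This was 11.1% each way, against 23.9% and 10.4% of all rows. The median log2 ratio of the list was -0.34. BTG2, an antiproliferative protein that binds the CCR4-NOT catalytic subunits and is also an immediate early gene, was 7.90-fold higher in the 4-library mean (6909 against 875 normalized counts). Its relative BTG1 had a log2 ratio of 0.75. Outside the rule, CNOT10 was the other gene past 2-fold upward, with only 8 reads in the 4 libraries together and 5 in the 7. CNOT11 (323 against 652 normalized counts) and the weakly expressed PAN2 (0.487 against 3.42) were the genes past 2-fold downward.

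Of 12 decapping genes 1 was at least 2-fold higher and 0 lower, against 23.9% and 10.4% of all rows. PATL1, a scaffold of decapping complexes, had means of 476 over the 4 libraries and 175 over the 7 libraries, a log2 ratio of 1.44. EDC3, an enhancer of decapping, had the lowest log2 ratio, -0.90. All 4 of its libraries (40.3 to 116 normalized counts) lay below the 7-library mean of 139. The same was true of 27.1% of rows with recovered reads and a mean of at least 10. LSM3, a subunit of the ring that binds deadenylated messages, had a log2 ratio of -0.04. Of 12 genes of the exosome and its SKI cofactor, 1 was likewise at least 2-fold higher and 0 lower, against the same shares. EXOSC9 had means of 1223 and 307 normalized counts and a log2 ratio of 1.99, while EXOSC7, of the same ring, had 31.2 and 55.8, and the related nuclease DIS3L 346 and 502.

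In the list of other RNA-binding proteins 4 of 15 genes (26.7%) were at least 2-fold higher in the 4-library mean and 0 lower. The shares of all rows were 23.9% and 10.4%, so the share higher was near that of all rows. At a mean of at least 10, 3 of 13 were higher, against 12.3% of such rows. The median log2 ratio of the list was 0.07. HNRNPA1 (log2 ratio 1.35) and IGF2BP3 (1.30), both named after their values were seen, were among those past 2-fold, as was FXR1, which had only 2 reads in the 7 libraries. HNRNPA1 had more than 1 row and has close copies in mammalian genomes, so its reads may be divided among them. YBX1, an abundant mRNA-packaging protein, had the lowest log2 ratio (-0.98), with means of 7377 and 14547, and PCBP1 had -0.58.

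**Figure D3:**
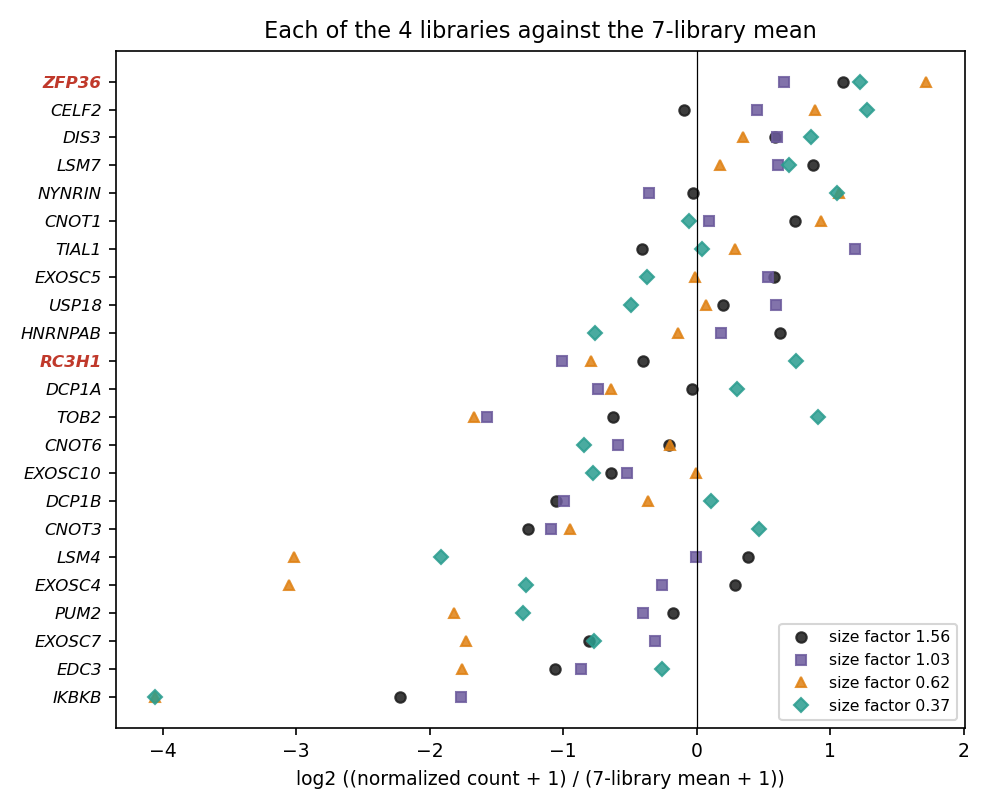
Values of each of the 4 libraries, relative to the 7-library mean on a log2 scale with 1 added to both, for the 23 decay factor and machinery genes with recovered reads and a mean of at least 10. All 4 libraries lie above the 7-library mean for 3 genes (ZFP36, LSM7 and DIS3), below it for 6 and on both sides for 14. Among all rows with recovered reads and such a mean, 12.5% have all 4 above and 27.1% all 4 below.

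The plot of single libraries sets ZFP36 and RC3H1 beside 21 machinery genes. ZFP36 was 1 of 3 genes with all 4 libraries above the 7-library mean, with LSM7 and DIS3, which were 24.2 to 39.8 and 12.9 to 18.8 normalized counts in the 4 libraries against 7-library means of 21.3 and 9.93. Of the 23 genes shown, 3 had all 4 libraries above and 6 had all 4 below. Among all 4559 rows with recovered reads and a mean of at least 10, the shares were 12.5% above and 27.1% below. The counts were near these shares and do not set the genes apart. Since reads were recovered only up to a 4-library mean of 80, genes lower in the 4 libraries are favoured in this set. RC3H1 was among the 14 genes with libraries on both sides. LSM7, a subunit of the same ring as LSM3, and DIS3, a nuclease of the exosome, were named after their values were seen, and DIS3 had further rows.

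Transcripts known from other mammals as targets of these proteins were mostly higher in the 4-library mean. Of 40 listed, 23 had a row, and 17 of these (73.9%) were at least 2-fold higher and 2 (8.70%) at least 2-fold lower, against 23.9% and 10.4% of all rows. Their median log2 ratio was 2.54. At a mean of at least 10, 16 of 19 were at least 2-fold higher, against 12.3% of such rows. The list was written with earlier results of these libraries known, so the count is a description and not evidence of a shared direction.

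TNF, the classical target of ZFP36, named after its values had been seen, had means of 102 normalized counts over the 4 libraries and 39.6 over the 7 libraries, a log2 ratio of 1.37. IL6, a target of ZC3H12A and ZFP36, had the highest log2 ratio of the list, 9.31, with a 7-library mean resting on 10 reads from 3 libraries. CXCL8, a neutrophil chemokine, had means of 42281 and 3670, and IL1B, an inflammatory cytokine, had means of 19298 and 880. LCN2, a neutrophil granule protein whose mRNA ZC3H12A is known to cut, went the other way, with means of 71.0 and 192 and a log2 ratio of -1.44. IL2, a T cell growth factor, was the other target past 2-fold downward, with means of 3.38 and 9.64.

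For 5 target transcripts, reads, zeros included, were recovered for each of the 11 libraries, and these were named for that reason after their values were seen. IL10, an anti-inflammatory cytokine, had 58.4, 40.9, 50.0 and 21.5 normalized counts in the 4 libraries, in order of falling size factor, and at most 6.36 in any of the 7. CCL20, a chemokine, had 10.3, 36.0, 195 and 5.38, against at most 2.85 in any of the 7. Both genes therefore separated the groups without overlap, all 4 libraries above all 7, as did 2.79% of the 4445 rows in which the reads of all 11 libraries, zeros included, were recovered, while 0.0675% had the opposite order. Such rows needed a 7-library mean of up to 6 and a 4-library mean of up to 80, a limit that favours genes high in the 4 libraries, so nothing is read from these shares. CSF1 (8.07 to 92.4 against at most 14.2), IL23A (3.21 to 91.9 against at most 9.97) and TNFRSF4 (0 to 8.07 against at most 3.62) overlapped. Over the 4 libraries, IL10 ran from 21.5 to 58.4, CCL20 and IL23A were highest in the library of size factor 0.620 and CSF1 in that of size factor 1.56.

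**Figure D4:**
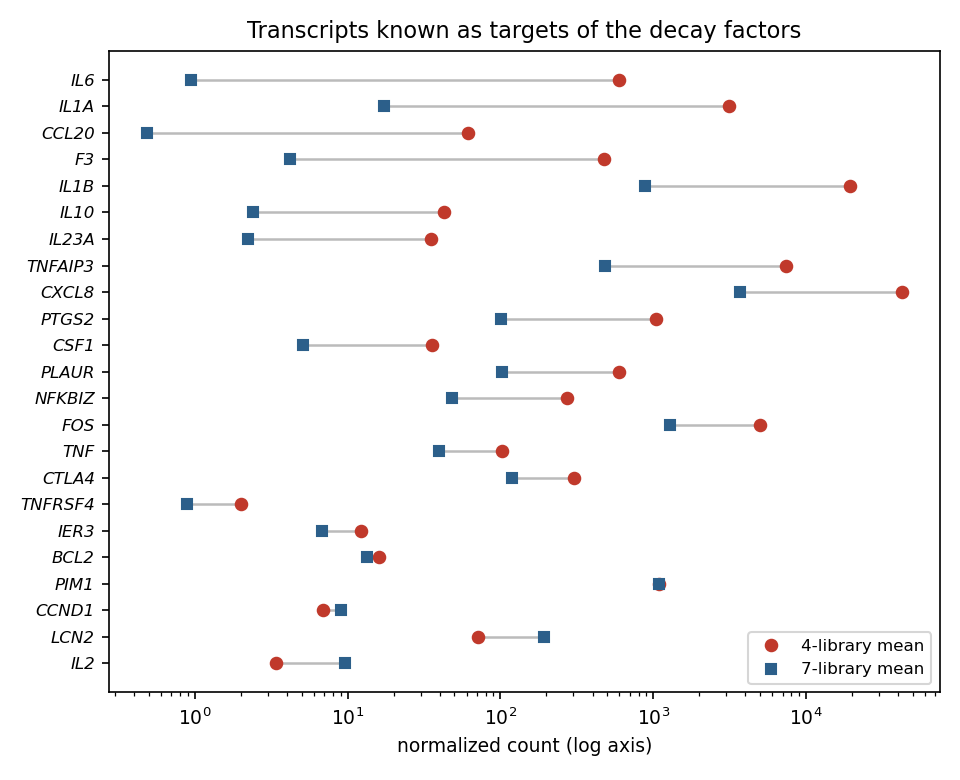
Means of normalized counts of the 23 target transcripts on a log axis, circles for the 4-library mean and squares for the 7-library mean. In 17 genes the 4-library mean is at least 2-fold higher; IL2 and LCN2 are at least 2-fold lower.

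Immediate early genes, the group to which ZFP36 belongs by its rapid induction, were also higher in the 4-library mean. Of 20 listed, 16 had a row, with a median log2 ratio of 2.10. Of these, 12 (75%) were at least 2-fold higher and 0 lower, against 23.9% and 10.4% of all rows. Like the targets, the list was written with earlier results of these libraries known. The count is therefore a description and not evidence of a shared direction. NR4A2, an orphan nuclear receptor, had the highest log2 ratio, 3.62, and KLF2, a factor of leukocyte quiescence, the lowest, 0.09. DUSP1, the phosphatase that switches off p38, had 4730 and 2667 normalized counts, a log2 ratio of 0.83. FOS and IER3 stand in this list and among the targets, BTG2 also among the deadenylases and DUSP1 among the partners of ZFP36. The part of this group in the ratios of ZFP36 and ZC3H12A was not tested.

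Markers of blood cell types also differed between the means, and their counts past 2-fold stand against 23.9% of all rows higher and 10.4% lower. Of 10 neutrophil markers with a row 9 were at least 2-fold lower in the 4-library mean and 0 higher, and their summed level was 2882 in the 4-library mean and 13091 in the 7-library mean. In each of the 5 neutrophil markers with recovered reads, all 4 libraries lay below the 7-library mean. The same held for 27.1% of rows with recovered reads and a mean of at least 10. Reads were recovered only where the 4-library mean was low, which favours genes lower in the 4 libraries. FPR1, the neutrophil marker with the higher 4-library mean (698 against 442), had no recovered reads. The count of 5 is therefore no separate evidence of a lower level. Monocyte markers had 1 of 5 genes higher and 0 lower past 2-fold (summed level 2426 and 2795), T cell markers 0 higher and 2 lower of 4 (3712 and 3865), and B cell markers 0 higher and 1 lower of 4 (809 and 853). Platelet markers had 3 of 4 higher (4167 and 1979), NK cell markers 1 of 2 lower (7.94 and 9.60), and erythroid markers 1 of 3 each way (186 and 487). Some sums mostly follow a single gene. These were IL7R for T cells (3424 and 3255), ITGA2B for platelets (3996 and 1919) and ALAS2 for erythroid cells (168 and 467). No marker with a row had a mean of 0, while PTPRC, CD14 and CD3E had no row by symbol. In whole buffy coat, fewer cells of a type and less RNA per cell cannot be told apart. The part of cell composition in the ratios of the decay factors was not tested.

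**Figure D5:**
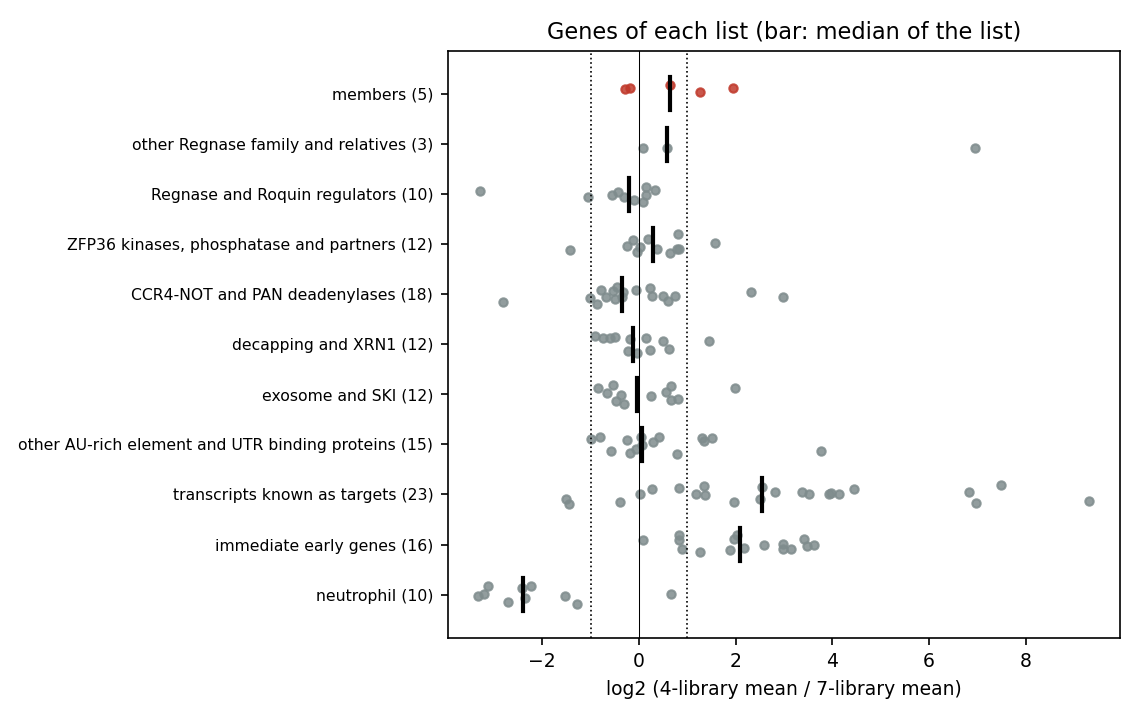
Log2 ratio between the group means (4-library divided by 7-library) for each gene of the decay factor, machinery, target, immediate early and neutrophil lists, with the number of genes in parentheses, a bar at the median and dotted lines at 2-fold. The machinery medians lie between -0.34 and 0.59, the targets at 2.54, the immediate early genes at 2.10 and the neutrophil markers at -2.39.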

How the data were processed

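Libraries came from 4 red tide and 7 control animals, after depletion of ribosomal and globin RNA. The authors trimmed reads with Cutadapt and aligned them to TriManLat1.0 with Bowtie2. Duplicates and reads with more than 1 position were discarded before counting by gene. For the counting program and annotation release, neither is given in the sources used here. Signal means were deposited by the authors: counts scaled by DESeq size factors and averaged per group and overall. The table also holds the authors' own comparison: a fold change (a ratio of the group means), its log2 value, and the p-value and adjusted p-value from DESeq; none of these was used. Of per-sample columns, 0 were left unused.

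The table has no value of a single sample, so the comparison of counts per sample made by the authors could not be repeated, nor an exact permutation test, since 0 members had recovered counts for all 11 libraries. Weights of 4 and 7 over 11 on the group means gave the overall mean, with a largest relative deviation of 3.3e-09. The step that 1 read of a library adds to a mean was read off the smallest values and refined by least squares. Reads were searched up to a 4-library mean of 80 and a 7-library mean of 6, and kept where a single combination gave the mean to within 6e-10 below 10 and 6e-09 above. This held for 9632 of 9634 and 4463 of 4505 rows. On data simulated with these same steps, 100% and 99.8% of 500 means per group gave 1 solution. That solution was the true one in 100% of cases, which was bound to be so, since the steps were taken as known. The simulation therefore shows how often the solution is single and does not test error in the steps. For a single library, depth is known only as its size factor, while the paper gives the mean and range of read numbers over all samples.

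Records were matched to RefSeq symbols of TriManLat1.0 without version number (10080 rows). Where a symbol had several rows, the one with the highest mean was used in lists. No scaffold name is given there, so no coordinates are printed, and normalized counts, which are not per length, rank no gene above another. Summed marker levels compare the groups only.

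Genes named are all members and, from each list, the highest and lowest log2 ratio at a mean of at least 10 and the 2 highest means; other genes are marked in the text, and some listed genes are not reported here. The members and lists were chosen with earlier results of these data known. Alternatives concerned the pseudocount, centring, the fold, low means and each of the 4 libraries left out. Python 3.11.15, numpy 2.4.6, pandas 2.3.3 and scipy 1.17.1 were used.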

Additional observations from a re-analysis of the deposited data

How the results depend on the processing

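With a fold of 4 in place of 2, 0 of the 5 decay factors were higher in the 4-library mean, and with 1.5 there were 3. The count of 2 past 2-fold stayed at 2 with centring on all rows, a pseudocount of 1, and a mean of at least 10, and the count of lower genes stayed at 0 in these. Leaving out a library could be computed for ZFP36 and RC3H1 alone; with the other 3 genes held at their full ratios, the counts were 2 to 2 higher and 0 to 0 lower. The ratios of ZC3H12A and ZFP36L2 may rest on a single library. Of the 117 genes with a row in the machinery, target and immediate early lists, the 5 members left out, 7 were at least 2-fold lower; this became 4 of 102 at a mean of at least 10 and 17 of 117 at 1.5-fold, as fewer genes entered or a smaller fold was asked. The 37 that were at least 2-fold higher became 31 and 51. The shares of rows past the same limits were 10.4%, 9.59% and 20.2% lower and 23.9%, 12.3% and 33.8% higher. With record versions matched, 0 members had a row, and no member had several rows to sum, so these alternatives gave no value. No paired analysis was possible because the table holds group means and the recovered libraries could not be linked to the replicate numbers of the samples.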
